A study of Mus musculus with 9 samples.

Results

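Mucins are the large, sugar-coated glycoproteins of epithelial surfaces, and 10 mucin genes were followed here in mouse colon after chemically induced colitis and carcinogenesis, with and without vanillin. The members were all array probes whose platform gene symbol was Muc1, Muc2, Muc3, Muc4, Muc5ac, Muc5b, Muc6, Muc13, Muc16 or Muc20. All 10 genes were found, with 12 of the 26423 probes, among 17742 named genes. Muc2, Muc5ac, Muc5b and Muc6 (4 genes, 5 probes) encode gel-forming mucins, and Muc1, Muc3, Muc4, Muc13, Muc16 and Muc20 (6 genes, 7 probes) encode membrane mucins. No probe was removed for low signal, so all 12 were tested.

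The samples were colon tissue of female BALB/c mice, of an age that is not stated in the labels, on 9 arrays in 3 groups of 3. Vanillin mice received 1 intraperitoneal dose of azoxymethane (AOM, a colon carcinogen, 12.5 mg/kg) on day 1. Dextran sodium sulfate (DSS), a polymer that damages the colonic epithelium, was added to their drinking water at 2.5% from day 8 in cycles of 5 days, each with 16 days of plain water after it, and the first cycle was followed by 3 more. They were also given vanillin, the flavour compound of vanilla, by mouth at 100 mg/kg for 91 days. Sham mice had the same AOM/DSS course without vanillin, and Mock mice had no treatment. Nothing in the labels says that the arrays of a group came from separate mice, so p-values measure no more than how far these arrays scatter, and that scatter may be technical.

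Gel-forming mucins are secreted, link into polymers and swell into mucus. In the colon, goblet cells make Muc2 as the main component of both mucus layers, while Muc5b belongs mainly to airway, salivary and other glands, Muc5ac to the gastric surface and airways, and Muc6 to gastric and duodenal glands. Membrane mucins are anchored in the apical membrane, form part of the glycocalyx and can signal through their cytoplasmic tails. Muc3, Muc13 and Muc4 are the members best known from intestinal epithelium.

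Values are the authors' normalised probe intensities on a linear scale. Changes are differences of group means of log2(intensity + 16) with their standard error (SE), and calls were made where the adjusted p was below 0.05 (limma, Benjamini-Hochberg over all 26423 probes). Levels are not compared between probes, since probes differ in efficiency. All 9 arrays had near-identical distributions, with medians of 319.6 to 320.1 and a ceiling near 65509, and 19.9 to 20.1% of probes per array lay below 50, called dim here. Colon epithelial markers were bright in all groups: the 9 measured of 10 summed to 219285 to 230124 in Vanillin, 216569 to 235653 in Sham and 215396 to 225198 in Mock arrays. Lgals4 and Epcam, at or near the ceiling, carry much of these overlapping sums, so the sums do not show that colon epithelium was level. Single genes differed: 4 rose and 2 fell in Sham minus Mock, against 36.5% of all probes called higher and 23.2% lower. Among them were Cdx2 (3.13, a mean of 4265 in Sham against 473 in Mock), Cdh17 (1.17), Slc26a3 (-2.98) and Car1 (-1.37). In Vanillin minus Sham none rose and 5 fell (median -0.29), against 15.7% of all probes called higher and 32.2% lower. With cyclic loess normalisation in place of the deposited scaling, 3 fell in that comparison (median -0.19). Squamous epithelium and skin markers (12 of 12 measured) summed to 290601 to 343486 in Vanillin, 26753 to 27908 in Sham and 533949 to 538356 in Mock arrays, and these sums did not overlap. In Sham 4 of the 12 averaged below 50, and Krtdap was at 0 on the Sham 1 array. Adipocyte markers (8 of 8) summed to 92920 to 96333 in Vanillin, 3264 to 3381 in Sham and 103979 to 105866 in Mock arrays. Neutrophil markers (7 of 7) summed to 116264 to 122788 in Vanillin, 65653 to 67880 in Sham and 17587 to 19295 in Mock arrays, and 6 of them rose in Sham minus Mock. The groups thus differed in marker signal both of colon epithelium and of other cells. Whether the same tissue was sampled in every group was not tested, nor was the part of this in the mucin differences, so a difference from Mock is a difference between these samples. In such bulk samples, fewer cells of a type and less RNA per cell cannot be told apart.

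In Sham minus Mock, 8 of the 12 mucin probes were called (4 higher and 4 lower), where 59.7% of all probes were called (36.5% higher and 23.2% lower), so the share itself is near the background. The arrays of the groups did not overlap for 9 of the 12, against 67.1% of all probes. The gel-forming genes divided sharply: Muc2 rose by 1.35 and Muc6 by 0.20, while Muc5b (-6.46 on its brighter probe) and Muc5ac (-1.97) fell. Of the membrane mucins, Muc4 (1.90) and Muc1 (0.89) rose, Muc16 fell by 0.35, and Muc3, Muc13 and Muc20 were not called. The median change was -0.88 over the 4 gel-forming genes and 0.18 over the 6 membrane genes, against 0.10 over all probes. With so few genes and opposite movements, these medians do not stand for their classes.

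In Vanillin minus Sham, 7 of the 12 mucin probes were called and all 7 were lower, where 47.9% of all probes were called, 15.7% higher and 32.2% lower. The same 7 did not overlap between the groups' arrays, against 56.3% of all probes. They belonged to Muc1 (-1.31), Muc4 (-1.15), Muc16 (-0.68), Muc2 (-0.50), Muc3 (-0.22) and both Muc5b probes (-0.34 and -0.20). The median change was -0.21 over the gel-forming genes and -0.45 over the membrane genes, against -0.09 over all probes. In Vanillin minus Mock, 11 of the 12 were called, 4 higher and 7 lower, where 50.7% of all probes were called (24.5% higher and 26.2% lower). The arrays did not overlap for 11, against 60.4% of all probes, and the class medians were -0.88 for gel-forming and -0.13 for membrane genes (-0.00 over all probes). These medians rest on few genes: the gel-forming one was 0.27 once dim probes were left out, and the membrane one -0.26 without Muc13, a probe at the ceiling. The comparisons share arrays, so the changes of one are not independent of those of another.

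**Figure D1:**
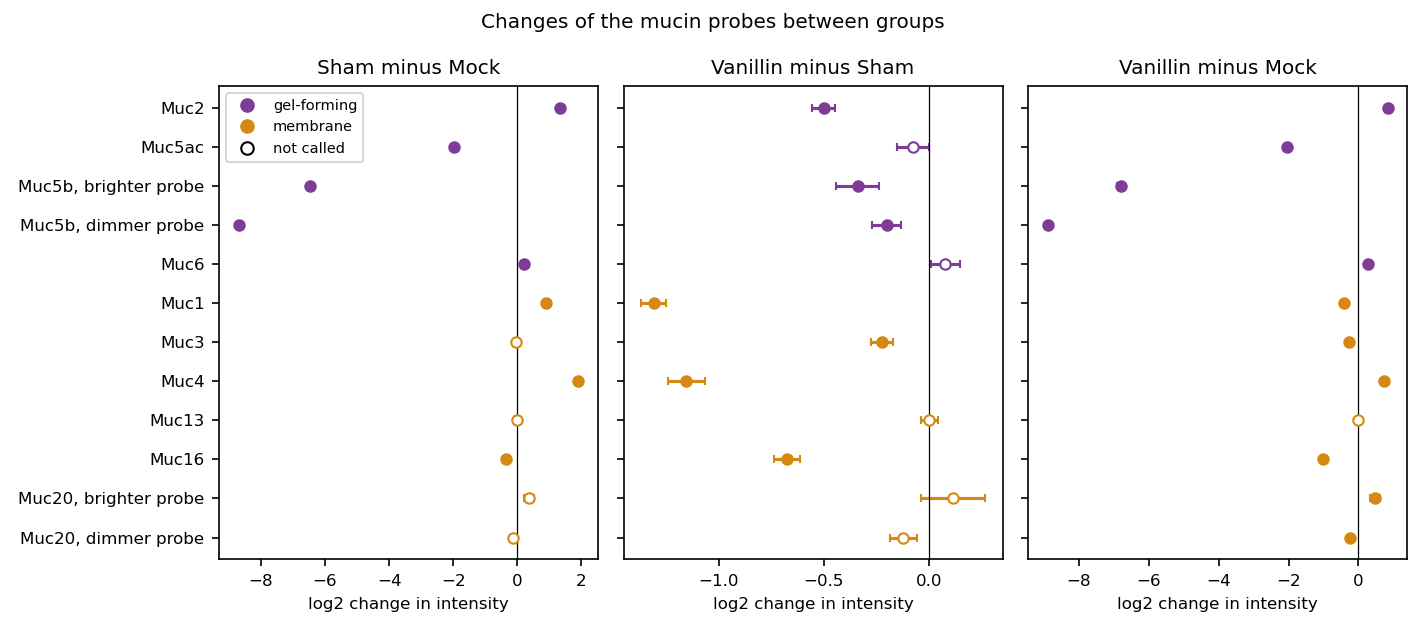
Log2 change in intensity of each mucin probe (rows) in the 3 comparisons, with bars for the SE, where they are wider than the points; purple marks gel-forming and orange membrane mucins, open circles were not called, and the horizontal scales differ between panels. Muc5b and Muc5ac lie far to the left in both comparisons with Mock, while the called probes of Vanillin minus Sham all lie left of 0.

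Muc2, the polymer that gives colonic mucus its gel, was measured at 40348, 41999 and 40692 in Vanillin, 55299.9, 57984 and 61137 in Sham and 22389, 23655 and 22389 in Mock arrays. The groups did not overlap, and their order was Sham, Vanillin, Mock from high to low. Muc2 averaged 58140.4 ± 2922 in Sham and 22811 ± 731 in Mock (SD, n = 3 each), a rise of 1.35 (SE 0.053, adjusted p = 3.06e-08 by limma). With 41013 ± 871 in Vanillin (SD, n = 3), it fell by 0.50 against Sham (SE 0.053, adjusted p = 7.29e-05 by limma) and remained 0.85 above Mock (SE 0.053, adjusted p = 1.53e-06 by limma). Sham values lie near the ceiling of the scale, so the rise over Mock may be underestimated. The summed level of the 6 goblet markers, which do not include Muc2, was 202739 to 209787 in Vanillin, 263610 to 267422 in Sham and 237663 to 243195 in Mock arrays. Clca1, at or near the ceiling in all groups, and Agr2 carry much of these sums. By gene, 2 rose and 1 fell in Sham minus Mock (median 0.08), against 36.5% of all probes higher and 23.2% lower. In Vanillin minus Sham none rose and 4 fell (median -0.425), against 15.7% of all probes higher and 32.2% lower. In Vanillin minus Mock none rose and 4 fell (median -0.29), against 24.5% higher and 26.2% lower. Thus the called goblet markers fell with Muc2 in Vanillin minus Sham. In Vanillin minus Mock they were also lower, whereas Muc2 was higher. The part of goblet cell number in either was not tested.

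Muc5b, a gel-forming mucin best known from airway and salivary glands, had the most extreme values of the family. Its brighter probe read 182, 246 and 228 in Vanillin, 269.9, 286 and 282 in Sham and 25858, 24390.4 and 27952 in Mock arrays. Its other probe read 31.8, 29.2 and 23.3 in Vanillin, 34.6, 34.7 and 34.4 in Sham and 21048, 21184 and 20768 in Mock arrays. Both probes were thus bright in all Mock arrays and low in all arrays of AOM/DSS-treated mice, and the second was dim there. The brighter probe fell by 6.46 in Sham minus Mock (SE 0.101, adjusted p = 5.6e-11 by limma) and the change was -6.80 in Vanillin minus Mock (SE 0.101, adjusted p = 2.18e-10 by limma). The other fell in both comparisons too, with changes of -8.70 and -8.90 (SE 0.069 in each), a size that depends on the pseudocount because of its dim values: with 1 it was -9.21 and -9.51, and with 64 it was -7.74 and -7.84. In Vanillin minus Mock, 0 and 1 of the 26423 probes had a larger decrease than the second and the brighter Muc5b probe. In Sham minus Mock, 9 and 70 probes did.

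In Vanillin minus Sham the brighter Muc5b probe fell by 0.34 (adjusted p = 0.0211) and the second by 0.20 (adjusted p = 0.039, limma), both small beside the loss against Mock. These calls were not stable. For the second probe, adjusted p lay between 0.0524 and 0.084 in 8 of the 9 fits that left out 1 array, the exception being the fit without Vanillin 1. For the brighter probe it was 0.061 without Sham 2, 0.0542 without Sham 3, and 0.162 with cyclic loess normalisation in place of the deposited scaling.

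Markers of tissues other than colon epithelium moved as Muc5b did only in part. All 5 measured smooth muscle markers fell in both comparisons with Mock (medians -2.10 for Sham and -1.85 for Vanillin), but 4 rose in Vanillin minus Sham. All 8 adipocyte markers fell in Sham minus Mock (median -4.785) and rose in Vanillin minus Sham (median 3.94). In Vanillin minus Mock 5 of these 8 fell (median -0.30). Among all probes, 36.5% were called higher and 23.2% lower in Sham minus Mock. In Sham minus Mock, where Muc5b fell, most mesothelium (5 of 8, median 1.55) and neutrophil markers (6 of 7, median 3.21) rose. Squamous epithelium and skin markers fell in 12 of 12 genes in Sham minus Mock (median -6.34), but 11 of 12 rose in Vanillin minus Sham (median 5.31), where no Muc5b probe rose. In Vanillin minus Mock 8 of the 12 fell and 4 were not called (median -0.77). The range in that comparison was from -3.81 for Krt4, with Sprr1b (-3.46) and Krt13 (-3.34) next, to 0.10 for Lor. Of 10 measured markers of salivary, mammary or other glands (11 listed), 6 fell and 2 rose in Sham minus Mock (median -0.60), with summed levels of 39853 to 44338 in Vanillin, 42914 to 45124 in Sham and 64004 to 67928 in Mock arrays. In this list 3 markers averaged below 50 in Vanillin, 2 in Sham and 1 in Mock. No gland marker was at 0, though Csn3 averaged 4.52 in Vanillin, 4.33 in Sham and 3.81 in Mock. Among the gland markers the milk casein gene Csn2 averaged 679 in Vanillin, 732 in Sham and 8427 in Mock. Its change was -3.61 for Vanillin against Mock and -3.51 for Sham against Mock. The latter was the largest fall of the list, whose changes in Sham minus Mock ran from -3.51 to 1.46. With cyclic loess, Krt7 (1.30) and Smr3a (0.89) rose in Sham minus Mock, and Prol1 did not move (0.002, adjusted p = 0.987 by limma). The part of these tissues in the Muc5b result was not tested.

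**Figure D2:**
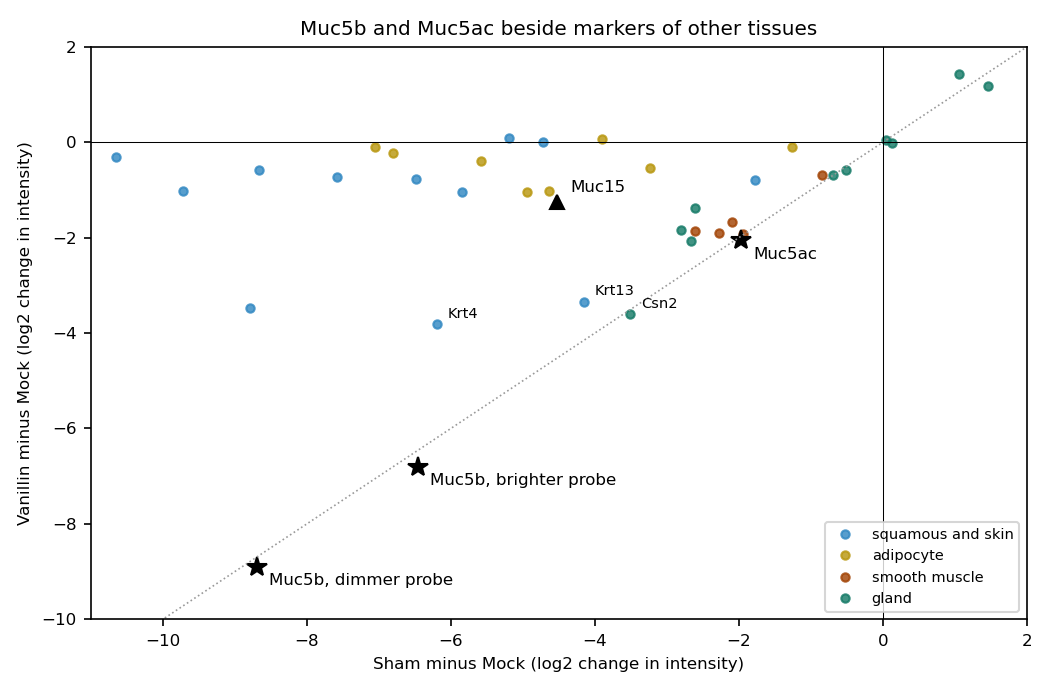
Change against Mock in Vanillin (vertical) plotted over change against Mock in Sham (horizontal), in log2 intensity, for Muc5b and Muc5ac (stars), Muc15 (triangle) and markers of 4 other tissues (circles, 1 probe per gene); the dotted line marks equal change in both. Both Muc5b probes and Muc5ac lie close to the line, whereas most squamous and adipocyte markers lie far above it, nearer to 0 on the vertical axis.

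Muc5ac, the gel-forming mucin of the gastric surface, was much weaker in signal but had the same group order as Muc5b against Mock. It read 36.0, 38.6 and 34.4 in Vanillin, 34.6, 41.6 and 41.9 in Sham and 211, 181 and 208 in Mock arrays. Vanillin and Sham overlapped, both were dim, and all Mock arrays were higher. Muc5ac fell by 1.97 in Sham minus Mock (SE 0.076, adjusted p = 2.88e-08 by limma) and by 2.04 in Vanillin minus Mock (SE 0.076, adjusted p = 5.62e-08 by limma). Vanillin minus Sham was not called (-0.08, SE 0.076, adjusted p = 0.435 by limma), and its sign turned under cyclic loess (0.02). Smooth muscle markers (5 of 7 measured) were also lower in both AOM/DSS groups: all 5 fell in both comparisons with Mock, with median changes of -1.85 for Vanillin and -2.10 for Sham. Their sums were 46439 to 49726 in Vanillin, 40278 to 43016 in Sham and 93183 to 94576 in Mock arrays, with none at 0. Unlike Muc5ac, 4 of the 5 were called higher in Vanillin minus Sham (median 0.38). Their part in the Muc5ac result was not tested.

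Muc6, the gel-forming mucin of gastric and duodenal glands, barely moved. It read 249, 270.0 and 259.9 in Vanillin, 225, 262 and 251 in Sham and 224, 198 and 213 in Mock arrays. Sham and Mock were separated by less than 1 unit of intensity at their nearest arrays. The rise of 0.20 in Sham minus Mock (SE 0.069, adjusted p = 0.0332 by limma) was lost without Mock 2 (0.113), Mock 3 (0.0723), Sham 2 (0.11) or Sham 3 (0.0871), and under cyclic loess the change was 0.05 (adjusted p = 0.531). Muc6 rose by 0.27 in Vanillin minus Mock (SE 0.069, adjusted p = 0.00926 by limma). Vanillin minus Sham was 0.07 (adjusted p = 0.41) and 0.23 under cyclic loess (adjusted p = 0.022).

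**Figure D3:**
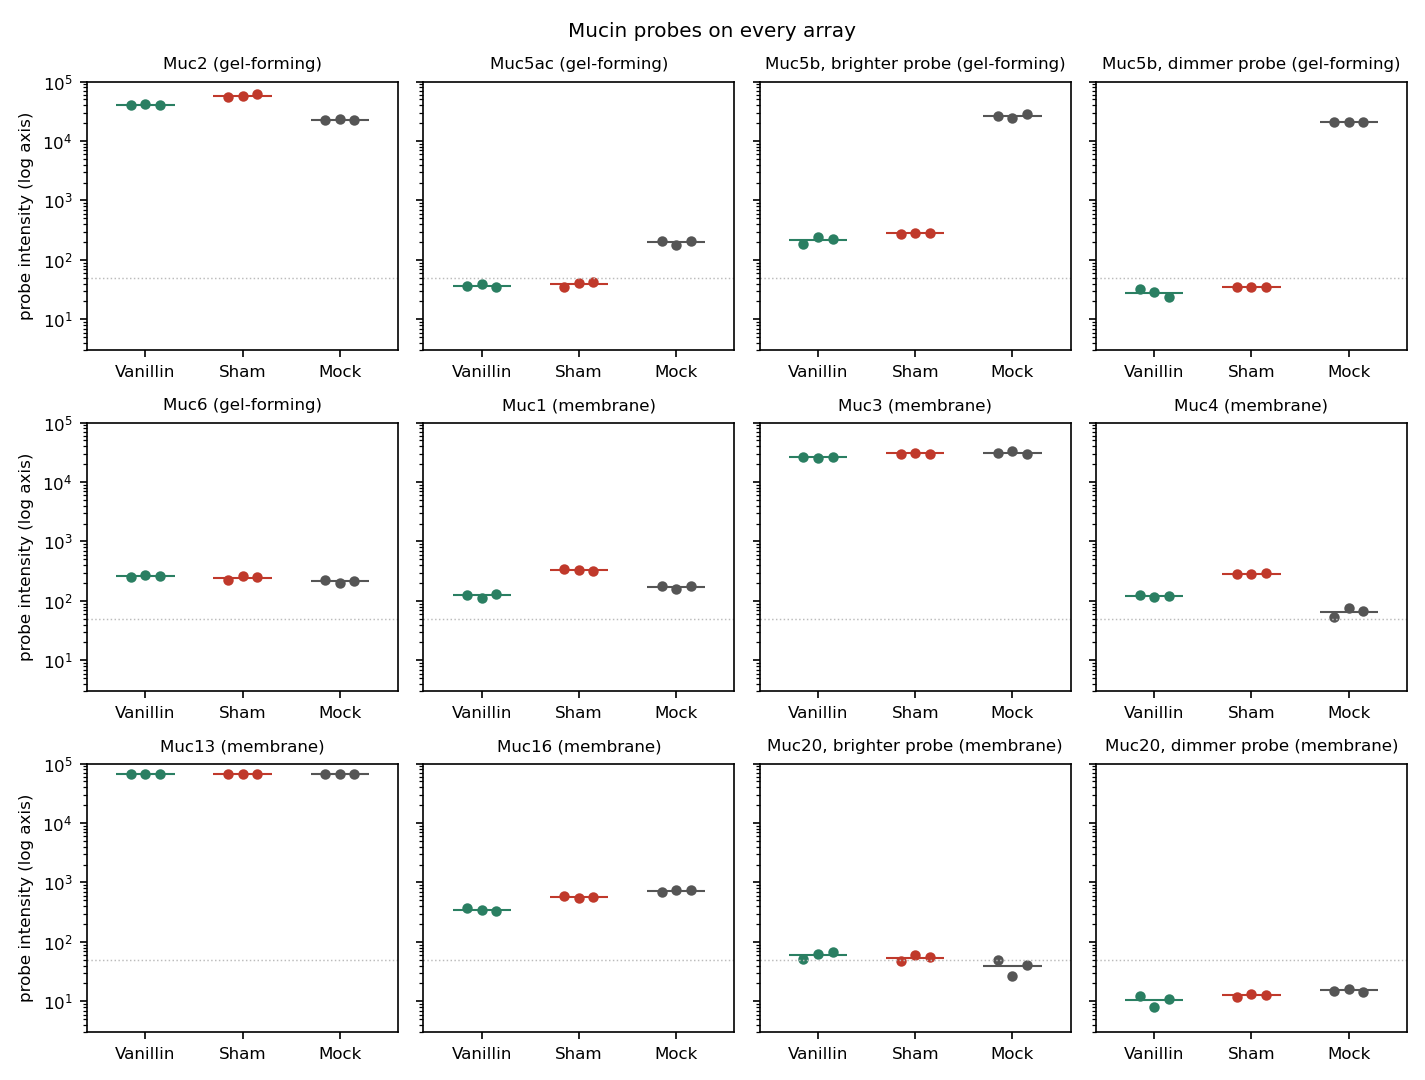
Probe intensity (log axis) of the 12 mucin probes on every array, in Vanillin, Sham and Mock (3 points each), with a horizontal line at each group mean and a dotted line at an intensity of 50. Muc5b and Muc5ac drop in both AOM/DSS groups, Muc2 and Muc4 are highest in Sham and lowest in Mock, and Muc13 sits at the ceiling on all 9 arrays.

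Among membrane mucins, Muc4, a large mucin that pairs with the receptor ErbB2, had the greatest rise in Sham minus Mock. It read 124, 115 and 121 in Vanillin, 282, 285 and 291 in Sham and 53.8, 75.3 and 67.2 in Mock arrays. The groups did not overlap, with Sham highest and Mock lowest, the order also seen for Muc2. Muc4 rose by 1.90 in Sham minus Mock (SE 0.089, adjusted p = 1.11e-07 by limma), fell by 1.15 in Vanillin minus Sham (SE 0.089, adjusted p = 1.04e-05 by limma) and was 0.75 higher in Vanillin than in Mock (adjusted p = 0.000111 by limma). In all, 109 of 26423 probes had a larger decrease in Vanillin minus Sham. Its partner Erbb2 read 425 in Vanillin, 499.9 in Sham and 879 in Mock on average, a fall of 0.80 in Sham minus Mock.

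Muc1, a widely expressed mucin with a signalling cytoplasmic tail, was highest in Sham. It read 127, 114 and 130.1 in Vanillin, 342, 329 and 318 in Sham and 175, 161 and 174 in Mock arrays. The groups did not overlap, and Vanillin was lowest. Muc1 rose by 0.89 in Sham minus Mock (SE 0.061, adjusted p = 1.64e-06 by limma), fell by 1.31 in Vanillin minus Sham (SE 0.061, adjusted p = 3.2e-07 by limma) and by 0.42 in Vanillin minus Mock (SE 0.061, adjusted p = 0.000421 by limma). For Vanillin minus Sham, 75 of 26423 probes had a larger decrease.

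Muc1, Muc2 and Muc4 were the members that rose in Sham minus Mock and fell in Vanillin minus Sham, so the 250 bases before their annotated starts are shown (RefSeq, GRCm38.p6, plus strand, 5′ to 3′). They lie at chr3:89228806-89229055 for Muc1, chr7:141690090-141690339 for Muc2 and chr16:32735636-32735885 for Muc4, and 8 of the 10 members had an entry in the promoter table. Capitals mark matches to 5 motifs searched on both strands: the TATA box TATAAA, the GC box GGGCGG, a STAT-type motif TTCNNNGAA, a Foxa-type motif TNTTTAC and a Cdx-type motif TTTATG.
Muc2: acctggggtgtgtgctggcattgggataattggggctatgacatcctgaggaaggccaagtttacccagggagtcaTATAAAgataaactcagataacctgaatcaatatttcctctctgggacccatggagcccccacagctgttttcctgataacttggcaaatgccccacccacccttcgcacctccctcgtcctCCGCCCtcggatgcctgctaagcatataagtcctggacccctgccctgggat
Muc4: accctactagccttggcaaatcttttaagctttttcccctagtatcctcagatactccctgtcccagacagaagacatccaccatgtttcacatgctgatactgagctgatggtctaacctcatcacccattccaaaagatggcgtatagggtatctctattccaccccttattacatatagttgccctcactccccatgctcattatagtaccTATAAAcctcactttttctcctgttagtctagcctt
Muc1: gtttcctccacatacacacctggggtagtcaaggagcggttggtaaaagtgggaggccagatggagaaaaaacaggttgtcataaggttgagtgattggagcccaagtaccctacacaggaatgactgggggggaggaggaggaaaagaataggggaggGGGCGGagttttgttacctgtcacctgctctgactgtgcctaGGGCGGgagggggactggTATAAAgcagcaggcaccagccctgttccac
Each of the 3 windows held the letters TATAAA at some position, as 12.4% of the 32851 promoter windows in the table do. They began 31 bases before the start in Muc1, 36 in Muc4 and 174 in Muc2, so the Muc2 match was not near the start. Muc1 had 2 GC boxes and Muc2 had 1, on the minus strand (32.7% of windows hold one), and no marked matches overlap. None of the 3 held the STAT-type (7.02% of windows), Foxa-type (10.9%) or Cdx-type (10.8%) letters in these bases. The matches are letters in a window and were not measured as binding.

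Muc16, the large CA125 mucin of mesothelium and moist epithelia, fell stepwise. It read 369, 347 and 334 in Vanillin, 598, 548 and 561 in Sham and 683, 745 and 756 in Mock arrays, with no overlap between groups. It fell by 0.35 in Sham minus Mock (SE 0.062, adjusted p = 0.001 by limma), by 0.68 in Vanillin minus Sham (SE 0.062, adjusted p = 3.01e-05 by limma) and by 1.02 in Vanillin minus Mock (SE 0.062, adjusted p = 1.23e-06 by limma). Mesothelium markers differed from Muc16 in Sham minus Mock: of 8 measured of 8, 5 rose and 2 fell. Mesothelin (Msln, 4.38), a known binding partner of Muc16, was among those that rose. In Vanillin minus Sham 1 of these markers rose and 5 fell (median -0.90), mostly the direction of Muc16. In Vanillin minus Mock 2 of the markers rose and 3 fell (median -0.16). Their sums were 2210 to 2329 in Vanillin, 3661 to 4078 in Sham and 1153 to 1188 in Mock arrays, with none at 0. Of the 8, 3 averaged below 50 in Vanillin, 1 in Sham and 2 in Mock.

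Muc3, an enterocyte brush-border mucin, was bright in every group. It read 25835, 25501 and 26428 in Vanillin, 30066, 31039.8 and 29730.0 in Sham and 30441, 32850.1 and 29939 in Mock arrays. Sham and Mock overlapped, and all Vanillin arrays were lower. Sham minus Mock was -0.04 (SE 0.051, adjusted p = 0.561 by limma), although it was -0.19 with cyclic loess (adjusted p = 0.0103). In that comparison cyclic loess also gave -0.15 to Muc13, a probe at the ceiling on every array. Muc3 fell by 0.22 in Vanillin minus Sham (adjusted p = 0.00589) and by 0.26 in Vanillin minus Mock (adjusted p = 0.00224, limma). The reference lists Muc3a as a separate gene on the same chromosome, and which of them the probe reads was not tested.

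Muc13, an abundant mucin of the intestinal surface, read 65508 to 65509 on all 9 arrays, the ceiling of the scale. No level or change can be read from this probe, and the membrane medians without it were 0.36 in Sham minus Mock, -0.68 in Vanillin minus Sham and -0.26 in Vanillin minus Mock.

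Muc20, a small membrane mucin that binds the receptor Met, was dim or nearly so. Its brighter probe read 50.6, 61.6 and 68.0 in Vanillin, 47.7, 59.6 and 55.1 in Sham and 49.4, 27.0 and 41.6 in Mock arrays. Its other probe read 12.1, 8.11 and 10.8 in Vanillin, 11.9, 13.2 and 12.8 in Sham and 15.1, 16.3 and 14.2 in Mock arrays. In Vanillin minus Mock the probes disagreed in direction, with 0.47 (SE 0.152, adjusted p = 0.0285 by limma) for the brighter and -0.25 (SE 0.063, adjusted p = 0.00997 by limma) for the other, so no direction is given for the gene. The call of the brighter probe was lost without Mock 2 (0.0684), Vanillin 2 (0.0735) or Vanillin 3 (0.098). The brighter probe was called in Sham minus Mock without Mock 1 (0.49, adjusted p = 0.0191, against 0.36 and 0.0698 with all arrays). In the reference gene order Muc20 follows Muc4, and Muc6, Muc2, Muc5ac and Muc5b are consecutive on chromosome 7. These neighbours did not share a pattern, since Muc2 rose while Muc5ac and Muc5b fell.

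Of 11 other mucin or mucin-like genes listed, 7 were measured. Muc15, a membrane mucin, read 184, 164 and 179 in Vanillin, 3.67, 3.67 and 4.44 in Sham and 460.2, 434 and 429 in Mock arrays. It fell by 4.52 in Sham minus Mock (SE 0.055, adjusted p = 1.27e-11 by limma) and rose by 3.27 in Vanillin minus Sham. Its Sham level is dim and below the pseudocount of 16, which sets both sizes: the ratio of means was 112 for Mock over Sham. Vanillin lay between Sham and Mock, as the sums of squamous and adipocyte markers did. The brightest of 3 probes for the gel-forming mucin Muc19 fell by 3.32 in Sham minus Mock, but its Sham arrays spread from 14.2 to 108, and the other probes gave -0.51 and 0.07. The lubricating proteoglycan gene Prg4 rose by 1.10 and the oviduct glycoprotein gene Ovgp1 by 0.47 in Sham minus Mock, while the endothelial sialomucin gene Emcn fell by 0.84. Emcn rose by 0.62 in Vanillin minus Sham, where Prg4 fell by 0.55. The adhesion molecule gene Mcam (0.03 in Sham minus Mock) and the sialomucin gene Cd164 (-0.01) were not called in that comparison, but both were called lower with cyclic loess (-0.15 and -0.16).

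The transcription factors that drive goblet cell formation moved with Muc2 in part. Of 9 measured, 7 rose and 2 fell in Sham minus Mock (median 0.37, and 0.18 with cyclic loess), where 36.5% of all probes were called higher and 23.2% lower. Against Sham, 1 rose and 7 fell in Vanillin (median -0.47, and -0.33 with 6 lower by cyclic loess), where 15.7% of all probes were called higher and 32.2% lower, with a median of -0.09. Foxa1 and Foxa3, forkhead factors of goblet cells, rose by 1.47 and 1.64 in Sham minus Mock and fell by 0.66 and 0.77 in Vanillin minus Sham, the same order of groups as Muc2, and both were higher in Vanillin than in Mock (0.81 and 0.87). Foxa2 rose by 0.74 in Sham minus Mock and fell by 0.88 in Vanillin minus Sham. Spdef, needed for goblet maturation, had another order, with a fall of 0.87 in Sham minus Mock and of 1.31 in Vanillin minus Mock, and Klf4 fell by 1.23 in Sham minus Mock and rose by 0.51 in Vanillin minus Sham. Atoh1, the factor that commits secretory cells, rose by 0.35 in Sham minus Mock and fell by 1.27 in Vanillin minus Sham and by 0.92 in Vanillin minus Mock. Gfi1 (0.65) and Xbp1 (at least 0.14, being at or near the ceiling in Vanillin and Sham) were higher and Klf4 (-0.73) and Foxa2 (-0.14) lower in Vanillin than in Mock, the call of Xbp1 being lost with cyclic loess (adjusted p = 0.639). With cyclic loess, 5 of the 9 rose in Sham minus Mock, and Atoh1 (0.17, adjusted p = 0.194) and Xbp1 (adjusted p = 0.932) were no longer called.

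Of the genes listed for goblet secreted and mucus-barrier proteins, none was called higher in Vanillin minus Sham, where 15.7% of all probes were. Lypd8 and Clca1 were at or near the ceiling in all groups, Retnlb in Vanillin and Sham, and Agr2 read 56089 in Vanillin, 59763 in Sham and 56309 in Mock on average, so that these 4 could show little or no rise. Of 11 measured (13 listed), 3 rose and 2 fell in Sham minus Mock (median 0.09, and -0.08 with cyclic loess). Among all probes, 36.5% were called higher and 23.2% lower there. In Vanillin minus Sham none rose and 6 fell (median -0.24, and -0.08 with 5 lower by cyclic loess), against 32.2% of all probes lower. In Vanillin minus Mock 1 rose and 6 fell (median -0.23), against 24.5% of all probes higher and 26.2% lower. Tff3, the trefoil peptide of goblet cells, rose by 0.37 and Zg16, a lectin that binds bacteria in mucus, by 0.26 in Sham minus Mock. They fell by 0.61 and 0.88 in Vanillin minus Sham, as did Sval1 (-0.70) and Agr3 (-1.02). Retnlb, a goblet cell antibacterial protein, rose by at least 0.53 in Sham minus Mock, with 65509 in Sham on average, at the ceiling. Agr3 fell by 0.62 and Tgm3, a transglutaminase, by 1.04 in Sham minus Mock. Against Mock, the Vanillin changes were -1.64 for Agr3, -0.94 for Tgm3, -0.62 for Zg16 and -0.52 for Sval1, and Retnlb was the 1 gene that rose (at least 0.53).

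Of 10 measured genes of mucin folding, packing and secretion (13 listed), 3 rose and 2 fell in Sham minus Mock (median 0.06, and -0.09 with cyclic loess), and none rose and 4 fell in Vanillin minus Sham (median -0.08, and -0.03 with 3 lower by cyclic loess). That is near the background of 32.2% lower and a median of -0.09 over all probes. Among all probes, 36.5% were called higher and 23.2% lower in Sham minus Mock. Slc12a2, the basolateral chloride importer that feeds fluid secretion, rose by 1.44 and Kcnn4, a potassium channel, by 0.99 in Sham minus Mock. Nlrp6, an innate sensor tied to goblet cell secretion in mice, rose by 0.30 in that comparison, a call lost with cyclic loess (adjusted p = 0.37), and fell by 0.72 in Vanillin minus Sham. Best2, a bicarbonate channel of goblet cells, fell by 0.50 in Sham minus Mock and by 1.14 in Vanillin minus Sham, and Rab3d, a granule GTPase, fell by 0.27 in Sham minus Mock. Ern2, the goblet cell stress sensor IRE1β, fell by 0.44 and Stxbp2 by 0.24 in Vanillin minus Sham (adjusted p = 0.000242 and 0.00812), and in that comparison the call of Stxbp2 was lost with cyclic loess (adjusted p = 0.0537). Slc12a2 (1.38) and Kcnn4 (1.00) were higher and Best2 (-1.64), Ern2 (-0.41), Nlrp6 (-0.42), Rab3d (-0.27) and Stxbp2 (-0.20) lower in Vanillin than in Mock.

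Enzymes that build mucin O-glycans rose in most cases in Sham: 21 of 28 measured rose and 5 fell in Sham minus Mock (median 0.51), against 36.5% of all probes called higher. In Vanillin, 3 rose and 14 fell against Sham (median -0.21, and -0.10 with cyclic loess), where 32.2% of all probes were called lower, with a median of -0.09. Chst4, a GlcNAc sulfotransferase, rose by 1.76 and Galnt5, which starts O-glycans, by 1.39 in Sham minus Mock. The sialyltransferase gene St3gal3 rose by 1.08. Galnt5 fell by 0.94 in Vanillin minus Sham, as did St6galnac2 (-0.73), B4galnt2 (-0.63) and the fucosyltransferase gene Fut4 (-0.53). St6galnac1, which caps core glycans with sialic acid, fell by 2.08 in Sham minus Mock and by 2.26 in Vanillin minus Mock, and it averaged 68.5 in Vanillin, 80.8 in Sham and 389.8 in Mock. Gcnt4 rose by 1.59 and Chst4 by 1.39 in Vanillin minus Mock, and Galnt6 changed by -1.57. The other 4 that fell in Sham minus Mock were Galnt6 (-1.36), Gal3st1 (-0.64), Chst5 (-0.25) and St3gal4 (-0.20), and the 3 that rose in Vanillin minus Sham were Gcnt4 (0.69), Chst5 (0.50) and St3gal4 (0.38). With cyclic loess 19 rose and 7 fell in Sham minus Mock, and 4 rose and 10 fell in Vanillin minus Sham.

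Gastric surface and gland genes, set beside Muc5ac and Muc6, moved both ways. Of 12 measured (13 listed), 5 rose and 4 fell in Sham minus Mock (median 0.09, and -0.08 with cyclic loess), and 2 rose and 10 fell in Vanillin minus Sham (median -0.53), where 32.2% of all probes were called lower. With cyclic loess 7 fell in that comparison (median -0.41), the calls of Gkn2, Pgc and Ctse being lost. Among all probes, 36.5% were called higher and 23.2% lower in Sham minus Mock. Tff2, the trefoil peptide packed with Muc6 in gastric glands, fell by 2.32 in Sham minus Mock and by 3.15 in Vanillin minus Mock, while Muc6 did not fall. Psca and Aqp5 fell in Sham minus Mock (-3.40 and -2.80) and were the 2 that rose in Vanillin minus Sham (1.71 and 0.95), remaining below Mock in Vanillin (-1.69 and -1.85). Gkn1, a gastrokine of the stomach surface, rose by 1.92 in Sham minus Mock. Gkn3 (0.86), Anxa10 (0.99), Vsig1 (0.49) and Cldn18 (0.12, adjusted p = 0.0496 by limma) also rose, the last not with cyclic loess (-0.04, adjusted p = 0.511), and Sult1c2 fell by 0.86. Anxa10 was dim in Mock (41.6) and Vanillin (34.5) on average, and Gkn2 was dim in all groups, which limits what their changes can show. In Vanillin minus Sham, Gkn3 (-1.01), Sult1c2 (-0.94) and Cldn18 (-0.67) fell, and Sult1c2 was lowest in Vanillin (-1.80 against Mock). Gkn1 (1.29) and Vsig1 (0.21) were the 2 that were higher in Vanillin than in Mock.

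Partners and sheddases of membrane mucins were divided too. Of 13 measured, 5 rose and 5 fell in Sham minus Mock (median 0.03, and -0.16 with cyclic loess), and 2 rose and 8 fell in Vanillin minus Sham (median -0.18, and -0.08 with 5 lower by cyclic loess), where 32.2% of all probes were called lower. Among all probes, 36.5% were called higher and 23.2% lower in Sham minus Mock. Mmp14, a protease that can shed Muc1, rose by 1.19 in Sham minus Mock, as did Met (0.55), Ctnnb1 (0.67), Ezr (0.37) and Adam9 (0.37). Mep1a, which encodes a subunit of the protease meprin, fell by 1.48 in Sham minus Mock and by 1.05 in Vanillin minus Sham. Erbb2, Erbb3 (-0.51), Egfr (-0.27) and Bace2 (-0.19) were the others that fell in Sham minus Mock. Mep1b fell by 0.98 and Ezr by 0.76 in Vanillin minus Sham. Vanillin minus Mock gave changes of -2.53 for Mep1a, -1.02 for Erbb2, -0.94 for Mep1b and 1.00 for Mmp14. Ctnnb1 (0.48), Met (0.44), Lgals3 (0.39) and Adam9 (0.21) were the others that rose there, the call of Adam9 being lost with cyclic loess (adjusted p = 0.0528). Egfr (0.38) and the galectin gene Lgals3 (0.36) were the 2 that rose in Vanillin minus Sham.

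**Figure D4:**
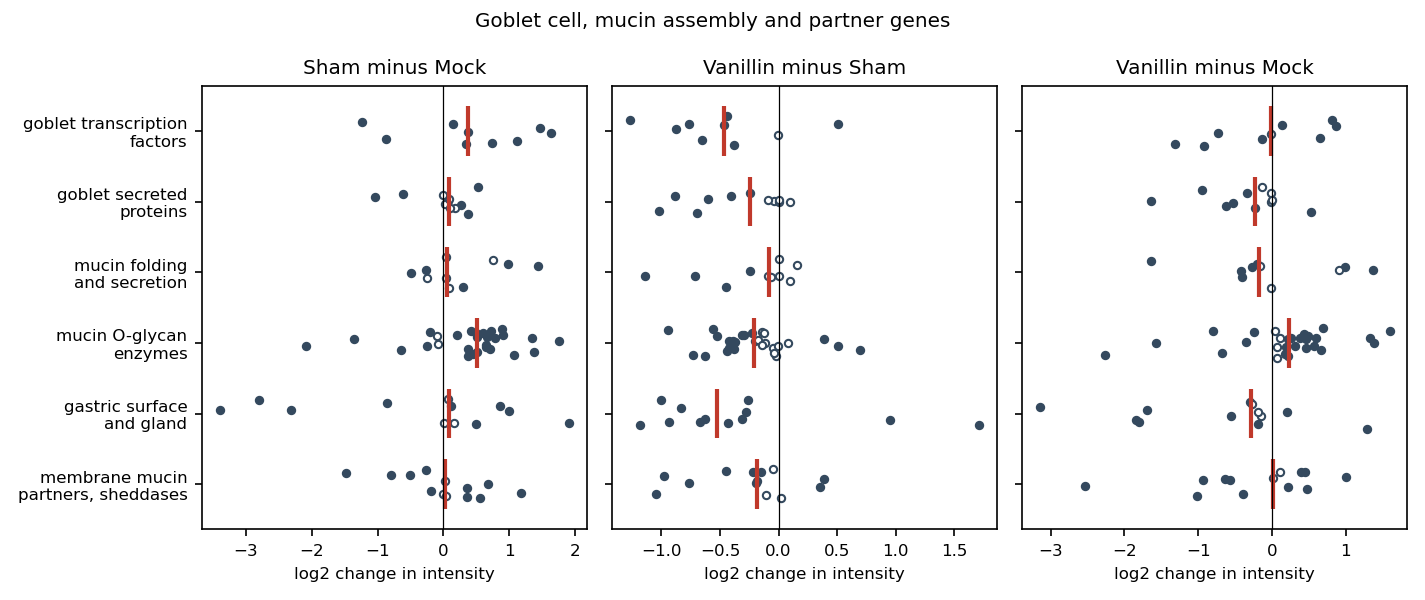
Log2 change in intensity of single genes (points, 1 probe per gene, spread vertically at random) in 6 lists of goblet cell, mucin assembly and partner genes, for the 3 comparisons; filled points were called, open points were not, and red bars are list medians. In Vanillin minus Sham the medians of all 6 lists lie left of 0, as does that of all probes (-0.09), which the folding and secretion list (-0.08) does not pass, and the horizontal scales differ between panels.

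The genes whose profiles over the 9 arrays lay closest to each member were found by the distance between mean-centred log2 values, a description that rests mostly on the 3 group means. Closest to Muc2 were Smarcad1, Neil3 and Ccdc34, of which Neil3, a DNA glycosylase, had 408 in Vanillin, 593 in Sham and 224 in Mock on average. Closest to Muc4 was the T cell chemokine gene Ccl5 (distance 0.149, r = 0.998 over 9 arrays), with a change of -1.20 for Vanillin against Sham and of 1.89 for Sham against Mock. Closest to Muc1 were Cps1, Vip and Bola1, and closest to Muc16 were Adh1, Cth and Pgbd1. Closest to Muc5b were the keratin gene Krt76, the claudin gene Cldn22 and the casein gene Csn1s2a, with changes of -6.46, -5.89 and -5.72 in Vanillin minus Mock. Those of Muc5ac were Popdc2, Cnn1 and Gstt4, Cnn1 being one of the smooth muscle markers. Muc3 lay nearest to Txndc15, Tpcn2 and Eif4b, Muc6 to Rhox12, Atad3a and Api5, and Muc20 to Mettl24, Cabp1 and Iqcb1. For Muc13 the nearest (Arpc2, Lypd8 and Tubb4b) were other probes at or near the ceiling.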

How the data were processed

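Colon RNA was amplified and labelled with Cy5, per the labels' protocols, and hybridised to 9 arrays of 1 colour. The deposited table holds probe intensity, linear in scale. Limma is named in the submitters' processing notes, with no role. The scanner, background method and spot summary have no entry in the sources used here. Values below 0 (3 to 14 per array) and near-identical distributions (sorted log2 values within 0.109 of each other) are what background subtraction and a scaling of whole distributions by the authors, such as quantile normalisation, would leave, though neither step is recorded. Of 26423 probes, 20377 have 1 gene symbol, 0 several and 6046 none.

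Negative values were set to 0 and log2(value + 16) was fitted with 3 group means in limma 3.58.1 (R 4.3.3; lmFit, eBayes without trend, two-sided), with 6 residual and 2.69 prior degrees of freedom. The number of arrays limits the precision, and an exact permutation test of 3 against 3 arrays could not go below 0.1. No array pair was identical (r of 0.995 to 0.998 within groups, and 0.926 to 0.973 between them). In lists, the brightest probe stands for its gene. Fits were tested on simulated data. Genes named are all members, all measured other mucins, up to 4 of each list by smallest p with any gene of a direction held by 5 or fewer, and the 3 genes nearest each member. Markers and single genes named beside a result are exceptions chosen after their values were seen. The members and lists were chosen with earlier results of these data known. Python 3.11.15 with matplotlib 3.10.9 made the figures.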

Additional observations from a re-analysis of the deposited data

How the results depend on the processing

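Alternatives were pseudocounts of 1 and 64, leaving out the dimmest 30% of probes, an intensity trend, array weights, only the 6 arrays compared, median centring, cyclic loess, a replicate block and leaving out each array. Counts of called probes stayed within 1.5 times under each. Cyclic loess moved the median change of all probes in Sham minus Mock to -0.00, against 0.10 as deposited, and with it the split of calls, to 6979 higher and 7981 lower against 9648 and 6139. For Vanillin minus Sham that split was 5947 higher and 5040 lower, against 4141 and 8518. Of the mucin probes, cyclic loess called 3 higher and 6 lower in Sham minus Mock and 1 higher and 5 lower in Vanillin minus Sham. The lower calls in Sham minus Mock include Muc13 (-0.15, adjusted p = 0.0107 by limma), which read at the ceiling on every array. Lypd8, at or near the ceiling in all groups, was also called lower (-0.15, adjusted p = 0.0105 by limma). Cyclic loess thus gave called changes to probes whose deposited readings barely differed. Its changes of similar size in other bright probes, such as Muc3 (-0.19) and Cd164 (-0.16), are to be read with that limit. Which scaling is nearer the tissue was not tested.

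The gel-forming median in Sham minus Mock was -1.05 with a pseudocount of 1, -0.59 with 64 and -0.99 with cyclic loess. It was 0.20 once the dimmest 30% of probes, Muc5ac among them, were left out. In Vanillin minus Mock it was -1.07, -0.58 and, without dim probes, 0.27. In Vanillin minus Sham it was -0.34 without dim probes and -0.088 with cyclic loess. The membrane median in Sham minus Mock was 0.24 with a pseudocount of 1, 0.10 with 64, 0.00 without dim probes, 0.078 with cyclic loess, 0.059 with the mean of a gene's probes and 0.36 without Muc13, an alternative chosen after seeing the data. Leaving out 1 array gave 0.10 (without Mock 2) to 0.25 (without Mock 1). In Vanillin minus Sham it was -0.68 without dim probes, -0.34 with cyclic loess and -0.68 without Muc13, and in Vanillin minus Mock -0.26, -0.23 and -0.26. Sham minus Mock of Muc3 ran from -0.063 (without Mock 3) to 0.004 (adjusted p = 0.955, without Mock 2) when 1 array was left out, and Vanillin minus Sham of Muc5ac was 0.018 with cyclic loess (adjusted p = 0.869); neither was called in the full data. The causes were not tested.

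Arrays share only a replicate number across groups: deviations of same-numbered arrays correlated from -0.288 to 0.201, and 3 of 9 arrays were closest to their own number. With a replicate block, 7, 7 and 10 mucin probes were called for Sham over Mock, Vanillin over Sham and Vanillin over Mock, against 8, 7 and 11 without it; Muc6 (0.20, adjusted p = 0.0589) in the first and the brighter Muc20 probe (0.47, adjusted p = 0.0512) in the last were lost. Signal limits what Muc13 (ceiling), Muc20, Muc15 in Sham and the low groups of Muc5ac and Muc5b (dim) can show.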
